A study of Mus musculus with 6 samples.

Results

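Messenger RNA of 10 genes that carry fatty acids into storage or cholesterol out of the cell was compared between macrophage cultures of wild-type (WT) mice and of mice lacking Bach1 (Bach1 KO), a heme-regulated transcriptional repressor. The 10 genes, Fabp4, Fabp5, Lpl, Acsl1, Dgat2, Plin2, Abca1, Abcg1, Apoe and Pltp, were listed by name for their roles in lipid handling. The list was drawn up with earlier results of these data known. All 10 were measured, through 12 probes, among the 15736 genes tested on the arrays. None of the 10 differed past the threshold between the genotypes, where 3.41% of all genes did. In 3 of the 10 the genotypes did not overlap (Lpl, higher in KO, and Acsl1 and Dgat2, lower in KO), which is near the share among all genes, 26.9%.

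The study holds 6 one-colour Agilent arrays, each of 1 mouse on a C57BL/6 background aged 11 weeks, with 3 mice of each genotype. Both genotypes were treated alike, and the bone marrow cells were cultured for 5 days with 10 ng/mL of granulocyte-macrophage colony-stimulating factor (GM-CSF) and 10% fetal bovine serum. Mice are named by their labels' numbers, as WT 1, 2 and 3 and as KO 947, 948 and 949. WT 3 and KO 949 were labelled female and the other 4 male. The KO allele and the part of Bach1 that it removes are not given in the sources used here. The labels name the cells macrophages, and cultures grown from marrow in GM-CSF can also hold dendritic cells and granulocytes.

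The first slide held the arrays of all 3 WT mice and of KO 947, and the other slide those of KO 948 and 949, so slide and genotype are partly confounded. Between 62.5% and 73.2% of spots were well above background, and every KO array had a lower share than every WT array. The Bach1 probe read from 2.21 to 2.59 in WT and from 1.45 to 2.23 in KO, with overlap, and where it lies in the gene was not checked. Hmox1, the heme oxygenase gene that Bach1 is known to repress, was 4.40-fold higher in KO (adjusted p = 0.0115). Of the macrophage markers Csf1r, Adgre1, Itgam and Lyz2 were well above background on all 6 arrays, and none of the 8 listed macrophage markers that were tested passed the threshold. Levels throughout are log2 of the signal over the array's own 75th percentile, and differences are KO minus WT. Levels of different probes are not on a common scale and are compared only between arrays. The threshold is an adjusted p of 0.05 in limma, a linear model with moderated variances, adjusted over all genes by the Benjamini-Hochberg method.

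Macrophages take up fatty acids that lipoprotein lipase frees from triglyceride-rich particles, carry them in the cytosol on fatty acid-binding proteins, activate them to acyl-CoA and store the surplus as triglyceride in lipid droplets. Cholesterol that they take up with lipoproteins and dying cells leaves through ATP-binding cassette exporters to apolipoprotein acceptors. The nuclear receptor PPAR gamma, which GM-CSF induces in macrophages, is known to drive fatty acid handling genes such as Fabp4, and the oxysterol-sensing liver X receptors (LXR) are known to drive Abca1, Abcg1, Apoe, Pltp and Lpl.

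Promoter sequence was available for 5 of the 10 genes (Pltp, Abca1, Plin2, Apoe and Acsl1) in 8 windows, each from 250 bases before to 50 bases after a start in RefSeq (GRCm38.p6). Both strands of each window were searched. The core that Bach1 shares with its Maf partners, TGAGTCA, was in 0 of the 8 windows and in 5.2% of the 32851 windows of all genes, and the partly overlapping antioxidant response element core TGACNNNGC was in 0 of 8 and in 12.4%. Direct repeats of the nuclear receptor half-site AGGTCA, which pairs of receptors bind, with a spacer of 1 base or of 4 bases were also in 0 of 8, and in 0.0396% and 0.0152% of all windows. The single half-site AGGTCA was in 1 of 8 windows, that of Plin2, and in 16.3% of all. The letters searched for the known LXR element of the Abca1 promoter were GGTTAC and GGTCAA with 4 bases between them. They were in the Abca1 window, with the first base at -68 from the start, and in 0.0122% of all windows. The letters describe that promoter's own element, so this match was fixed in advance. These are matches of letters, and no binding was measured. The 250 bases before the start are shown for Abca1, an exporter known as an LXR target, and for Plin2, with the matched letters (the Abca1 LXR element and the single half-site, each as it reads on the gene's strand) in capitals. They lie at chr4:53159896-53160145 and chr4:86670060-86670309 on the minus strand of GRCm38.p6, and are written 5′ to 3′ in the direction of the gene.
Abca1: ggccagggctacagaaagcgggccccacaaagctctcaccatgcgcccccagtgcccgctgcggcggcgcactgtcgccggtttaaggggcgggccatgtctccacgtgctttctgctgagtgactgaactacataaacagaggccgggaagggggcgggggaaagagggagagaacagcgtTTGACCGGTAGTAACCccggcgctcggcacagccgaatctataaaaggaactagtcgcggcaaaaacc
Plin2: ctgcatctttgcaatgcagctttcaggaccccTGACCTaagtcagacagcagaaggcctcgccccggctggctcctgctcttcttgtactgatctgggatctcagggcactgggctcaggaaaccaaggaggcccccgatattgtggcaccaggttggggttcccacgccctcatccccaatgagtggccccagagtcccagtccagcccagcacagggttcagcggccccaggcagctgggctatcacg

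The first comparison asked whether the 10 genes as a group differed with Bach1. With limma, 0 of 10 passed the threshold, where 3.41% of all genes did (1.14% higher and 2.27% lower in KO). At an unadjusted p under 0.05 there were 2, Lpl and Acsl1, where 20.4% of all genes had such a p. The genotypes did not overlap in 3, where this held for 26.9% of all genes. Each of these counts is near its share among all genes. The 10 genes were chosen with earlier results of these data known, so the counts are a description. The median difference of the 10 genes was -0.03, beside -0.01 over all genes, and their median absolute difference was 0.198, beside 0.253 over all genes. Differences ran from -0.55 (Dgat2) to 0.42 (Lpl). All 12 probes were well above background on all 6 arrays, so none of the values is a bound.

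**Figure D1:**
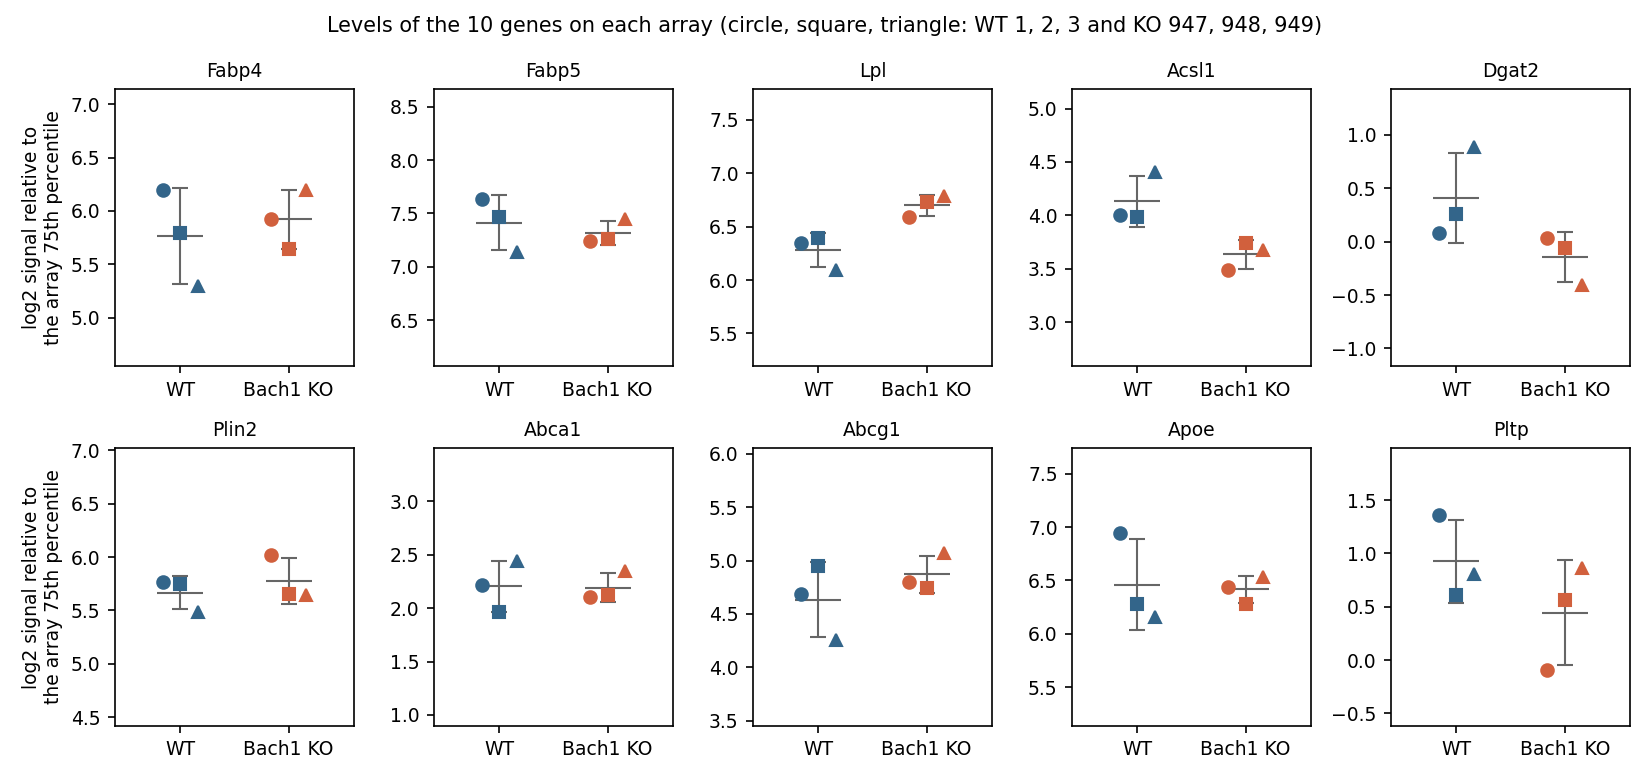
Level (log2 of the signal over the array's own 75th percentile) of each of the 10 genes on each of the 6 arrays, with the mean and SD of each genotype as grey bars (n = 3 mice); every panel spans the same log2 range. Lpl lies higher on all KO arrays and Acsl1 and Dgat2 lower on all KO arrays, and in the other 7 genes the genotypes overlap.

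Lpl encodes lipoprotein lipase, which releases fatty acids from triglyceride-rich lipoproteins. Its level was 6.35, 6.39 and 6.09 in WT 1, 2 and 3, against 6.59, 6.73 and 6.79 in KO 947, 948 and 949. Every KO mouse exceeded every WT mouse, by a gap of 0.201, and the spread within either genotype (SD 0.161 in WT and 0.0991 in KO) was smaller than the difference. That difference was 0.42 ± 0.15 (SE, n = 3 mice per genotype; 95% confidence interval 0.06 to 0.79; 1.34-fold), and it did not pass (adjusted p = 0.183). A second Lpl probe read 4.61, 4.97 and 4.54 in WT, against 5.67, 5.50 and 5.65 in KO, a larger separation with a difference of 0.90 ± 0.17. Tested with each of 20214 probes on its own, this second probe missed the threshold narrowly (adjusted p = 0.0507), where 2.58% of all probes passed. It passed with scaling to the array median (1.12, adjusted p = 0.0351) and with normexp background correction and quantile normalization (0.85, adjusted p = 0.0356). It did not pass with quantile normalization alone, with the slide or sex in the fit, on arrays labelled male or without any 1 array (adjusted p from 0.0592 to 0.258). Both Lpl probes pointed the same way and differed in size, and the mean of both gave a difference of 0.66 (adjusted p = 0.0718). The authors' table, in which every probe separates the genotypes, holds both probes, and Lpl is the 1 gene of the 10 in it.

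Acsl1 encodes an acyl-CoA synthetase, which activates long-chain fatty acids for storage or oxidation. Its level was 3.9995, 3.99 and 4.41 in WT 1, 2 and 3, against 3.48, 3.74 and 3.68 in KO 947, 948 and 949. All KO arrays lay below all WT arrays, with a gap of 0.246. The difference was -0.50 ± 0.18 (95% confidence interval -0.92 to -0.08), which is 1.41-fold less in KO and did not pass (adjusted p = 0.178). A second Acsl1 probe read 0.97, 0.86 and 1.55 in WT, against 0.14, 0.19 and -0.24 in KO, again without overlap. Its difference was -1.09 ± 0.23 and missed the threshold among all probes (adjusted p = 0.0651), and it passed in 1 of the alternative fits, with normexp and quantile normalization (-1.12, adjusted p = 0.0448). In the others, which include the slide as a block and each array left out, its adjusted p ran from 0.0717 to 0.295. The mean of both probes gave -0.80 (adjusted p = 0.0798). On both probes WT 3 was the highest array, and without it the differences were -0.36 and -0.88.

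**Figure D2:**
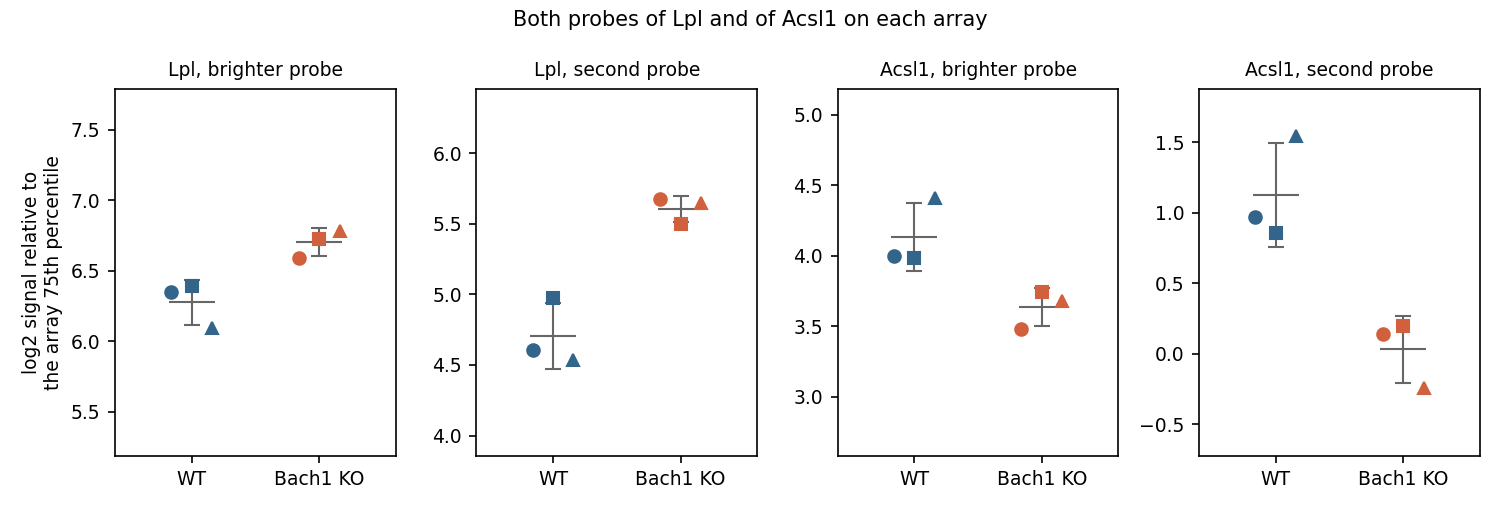
Levels of both probes of Lpl and of Acsl1 (log2 of the signal over the array's own 75th percentile) on the 6 arrays, with the mean and SD of each genotype as grey bars (n = 3). In all 4 panels the genotypes do not overlap, and the second probe shows the larger difference for both genes (0.90 against 0.42 for Lpl and -1.09 against -0.50 for Acsl1).

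Markers of other cells moved with the genotype beside these genes. Each summed level adds the signals of a list's markers before log2 is taken, so the brightest probes weigh the most. The 9 granulocyte markers include S100a8 and S100a9. Their summed level ran from 7.58 to 7.81 in WT and from 6.80 to 6.995 in KO. Of the 9, 8 were lower in KO and Elane was higher (0.20, adjusted p = 0.603). Only S100a9 fell, which here means lower in KO past the threshold. The sum of 12 dendritic cell markers ran from 8.58 to 8.87 in WT and from 8.15 to 8.28 in KO, with 5 of 12 fallen, among them Ccr7, Ciita and Cd83. For 10 stromal markers it ran from 2.34 to 4.65 in WT and from -0.68 to 0.51 in KO, with Sparc, Col1a1 and Col1a2 fallen of 8 tested. For 10 markers of eosinophils, mast cells and basophils it ran from 4.66 to 5.78 in WT and from 2.76 to 4.51 in KO, with Mcpt8, Prss34 and Kit fallen of 8 tested. Of these 8, 7 were lower in KO and Siglecf was higher (0.47, adjusted p = 0.290). Mcpt8 was well above background on all 3 WT arrays and on no KO array. It was thus kept in the test through the WT arrays alone, and the size of its fall is only a bound. The sum of 9 macrophage markers overlapped, from 8.43 to 8.61 in WT and from 8.52 to 8.65 in KO. None of 7 lymphocyte and 3 erythroid markers tested passed. Adipocytes share Fabp4, Lpl and Dgat2 with macrophages, so 10 other adipocyte markers were also read. Their sum ran from -1.42 to -1.29 in WT and from -1.87 to -1.79 in KO, 0 of 6 tested passed, and Lep and Cidea were not well above background on any array. Of these 6, 5 were lower in KO. Adipoq was well above background on all 3 WT arrays and on no KO array (adjusted p = 0.065). In whole cultures, fewer cells of a type and less RNA per cell cannot be told apart, and the part of these cells in the differences of Lpl, Acsl1 and Dgat2 was not tested.

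Fabp4 and Fabp5 encode cytosolic carriers that bind long-chain fatty acids. Fabp4 read 6.20, 5.80 and 5.30 in WT 1, 2 and 3, against 5.92, 5.65 and 6.19 in KO 947, 948 and 949. All KO arrays lay within the range of the WT arrays, so the genotypes overlapped fully. The difference was 0.16 ± 0.27 (95% confidence interval -0.48 to 0.79, adjusted p = 0.782), and it was -0.08 without WT 3 and -0.21 on arrays labelled male. Fabp5 read 7.64, 7.47 and 7.14 in WT, against 7.25, 7.26 and 7.45 in KO. Its difference was -0.09 ± 0.18 (-0.52 to 0.33, adjusted p = 0.803) and turned positive under scaling to the array median (0.12). For both carriers WT 3 was the lowest WT array and KO 949 the highest KO array.

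Dgat2 encodes an acyltransferase that completes triglyceride synthesis, and Plin2 encodes the perilipin that coats lipid droplets of macrophages. Dgat2 read 0.08, 0.26 and 0.88 in WT 1, 2 and 3, against 0.03, -0.06 and -0.41 in KO 947, 948 and 949. The genotypes did not overlap, but the gap between WT 1 and KO 947 was only 0.0452, and WT 3 and KO 949, the arrays labelled female, held the ends of the range. The difference was -0.55 ± 0.25 (95% confidence interval -1.14 to 0.04, adjusted p = 0.275), and it was -0.31 without WT 3 and -0.18 on arrays labelled male. Plin2 read 5.77, 5.75 and 5.49 in WT, against 6.02, 5.66 and 5.64 in KO. Here KO 947 stood above the rest and the other KO arrays lay within the WT range. The difference was 0.11 ± 0.17 (-0.30 to 0.52, adjusted p = 0.770).

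Abca1 and Abcg1 encode the exporters that pass cholesterol to lipid-poor apolipoprotein and to lipoprotein particles. Abca1 read 2.22, 1.96 and 2.44 in WT 1, 2 and 3, against 2.10, 2.12 and 2.35 in KO 947, 948 and 949. All 3 KO arrays lay within the range of the WT arrays. The difference was -0.01 ± 0.18, with a 95% confidence interval of -0.43 to 0.40, which spans 0.740-fold to 1.32-fold (adjusted p = 0.974). Abcg1 read 4.69, 4.95 and 4.26 in WT, against 4.80, 4.75 and 5.07 in KO, with WT 3 below all other arrays. Its difference was 0.24 ± 0.22 (-0.28 to 0.75, adjusted p = 0.583). The interval of Abcg1 was wider and reached 1.68-fold, and without WT 3 its difference was 0.049.

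Apoe encodes apolipoprotein E, which macrophages secrete and which takes up exported cholesterol, and Pltp encodes the phospholipid transfer protein that remodels lipoproteins. The Apoe probe was spotted 10 times on each array, which gives the spread between spots of an array. The SD among spots was 0.0303 to 0.0705, while the SD among WT mice was 0.424 and among KO mice 0.126. Spots of an array share their RNA, labelling and hybridization, so the first of these covers only the noise within an array. Apoe read 6.95, 6.28 and 6.16 in WT 1, 2 and 3, against 6.43, 6.28 and 6.53 in KO 947, 948 and 949, with WT 1 above all others. Its difference was -0.05 ± 0.23 (95% confidence interval -0.60 to 0.51, adjusted p = 0.934), and without WT 1 it was 0.20. Pltp read 1.36, 0.61 and 0.81 in WT, against -0.09, 0.56 and 0.86 in KO. KO 947 was the lowest array by a wide margin, and the other KO arrays did not stand apart from WT 2 and 3. The difference was -0.48 ± 0.30 (-1.21 to 0.24, adjusted p = 0.424), and it was -0.21 without KO 947 and -0.26 without WT 1.

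**Figure D3:**
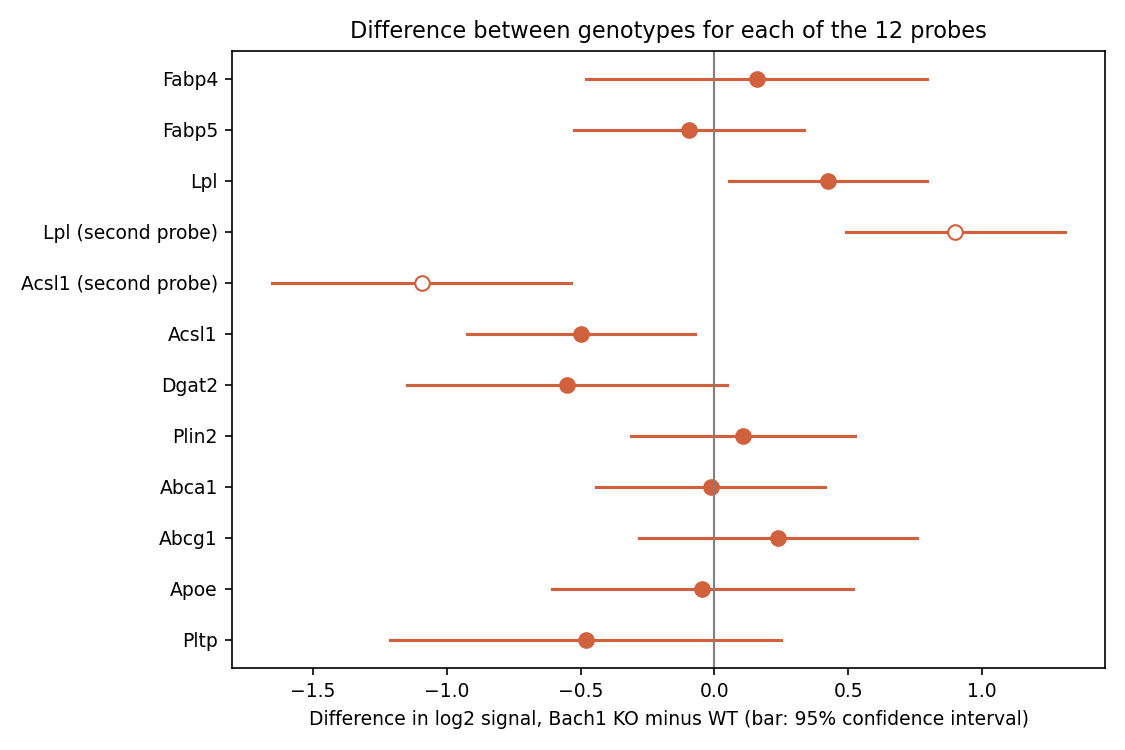
Difference in log2 signal (KO minus WT) of each of the 12 probes from the fit of all probes, with its 95% confidence interval (n = 3 mice per genotype); filled points are the probe used for the gene and open points the second probe of Lpl and of Acsl1. The intervals of Lpl and Acsl1 do not include 0 on either probe, those of the other 8 genes do, and no probe passed the threshold after adjustment.

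With the slide entered as a fixed block, a fit in which the genotypes meet only on the slide of KO 947, none of the 10 passed and the differences were 0.31 for Lpl, -0.65 for Acsl1, -0.37 for Dgat2, 0.35 for Plin2 and -1.02 for Pltp. Scaling to the array median raised the median difference of all genes to 0.21, and 7 of the 10 were then higher in KO in place of 4. Relative to that median 4 of 10 were higher, as in the main scaling, so the direction of the smallest differences (Fabp5, Abca1 and Apoe) depended on the scaling. Under that scaling Acsl1 was at -0.28.

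The mice differed more among the WT than among the KO arrays in most of these genes. The SD was larger in WT in 8 of 10 genes, all but Plin2 and Pltp, where this held for 45.6% of all genes. The median SD of the 10 genes was 0.303 in WT and 0.156 in KO, and that of all genes 0.218 and 0.238. WT 3 was the lowest WT array for Fabp4, Fabp5, Lpl, Plin2, Abcg1 and Apoe and the highest for Acsl1, Dgat2 and Abca1. It was thus at an end of the WT range in 9 of 10 genes, where this held for 70.7% of all genes. KO 949 was at an end of the KO range in 9 of 10 genes too, where this held for 67.0% of all genes. WT 3 and KO 949 are the arrays labelled female.

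Other genes of these pathways were then read from 8 lists of 118 genes, of which 110 were tested. Of them 3 rose, 2 fell and 105 did not pass, which is 4.55% past the threshold where 3.41% of all genes were. The 5 genes lay in 3 lists: triglyceride synthesis and the lipid droplet (2 rose and 1 fell of 20), cholesterol efflux and transport (1 rose of 16) and uptake of fatty acids and lipoproteins (1 fell of 11). The lists were drawn up with earlier results of these data known. The median differences of these lists were 0.17, -0.04 and 0.16, beside -0.01 over all genes.

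Gpat3, an enzyme of the first step of glycerolipid synthesis, read -2.40, -2.60 and -2.32 in WT 1, 2 and 3, against -0.89, -0.94 and -1.23 in KO 947, 948 and 949, a rise of 1.42 ± 0.16 (2.68-fold, adjusted p = 0.0116). Agpat3, a member of the acyltransferase family that acts on lysophosphatidic acid, rose by 0.78 ± 0.15 (1.72-fold, adjusted p = 0.0449). It read 2.60, 2.91 and 2.81 in WT, against 3.61, 3.54 and 3.50 in KO. Both genes were higher on every KO array. Mogat2, a monoacylglycerol acyltransferase, read -2.002, -1.12 and -1.20 in WT, against -2.92, -2.86 and -2.62 in KO, and fell by 1.36 on the log2 scale (SE 0.26, adjusted p = 0.0459). Ch25h encodes a cholesterol hydroxylase, which makes an oxysterol, and had the largest difference of the 110 genes. It read -1.44, -1.65 and -1.85 in WT, against 0.79, 0.30 and -0.17 in KO, a rise of 1.95 ± 0.26 (3.87-fold, adjusted p = 0.0179). Slc27a3, of the fatty acid transport protein family, read 1.07, 1.33 and 0.84 in WT, against -0.34, -0.50 and -0.05 in KO, and fell by 1.38 on the log2 scale (SE 0.20, adjusted p = 0.0211). In all 5 genes all 6 arrays were well above background. The genotypes did not overlap in any of the 5, where this held for 26.9% of all genes. The 5 were picked for passing the threshold in the same comparison, which makes this likely, so it is no further evidence.

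**Figure D4:**
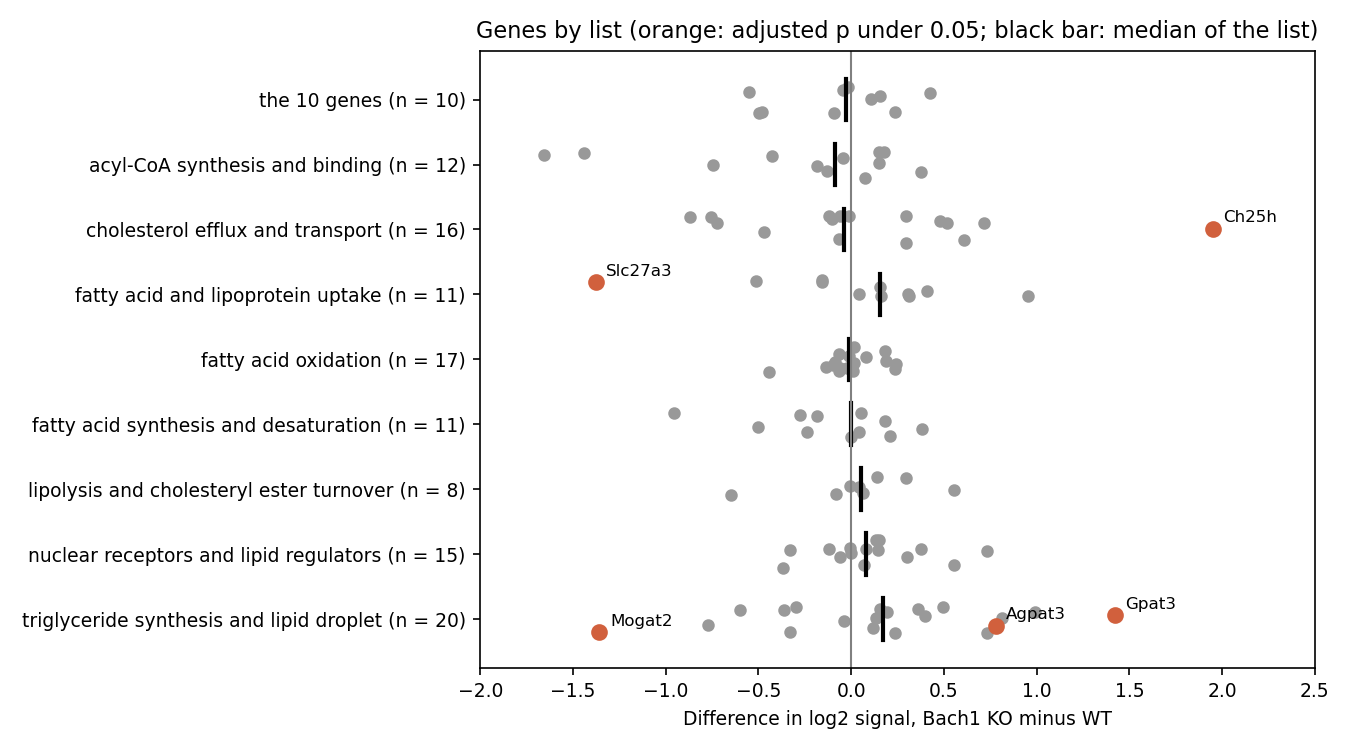
Difference in log2 signal (KO minus WT) of each tested gene by list, with the 10 genes in the top row; orange points passed the threshold and black bars are list medians. The 5 named genes that passed (Gpat3, Agpat3, Mogat2, Ch25h and Slc27a3) lie outside the range of the 10 genes, which runs from -0.55 to 0.42. Listed genes that did not pass, such as Acss2 (-1.44) and Fabp3 (0.95), lie outside it too.

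The list of cholesterol efflux and transport held more genes without overlap than its 1 call shows, and its median absolute difference was 0.475. At an unadjusted p under 0.05 there were 8 of 16, where 20.4% of all genes had such a p, and the genotypes did not overlap in 10 of 16, where this held for 26.9% of all genes. The list was drawn up with earlier results of these data known, so these shares cannot show an excess. The 10 genes without overlap went both ways. Besides Ch25h, the receptor for high-density lipoprotein Scarb1 (0.48, adjusted p = 0.137), the exporter Abcg4 (0.72, 0.149), the oxysterol-binding Osbpl1a (0.61, 0.165), Apobec1 (0.52, 0.193) and the lysosomal cholesterol transporter Npc1 (0.30, 0.309) were higher on every KO array. The transporter Abca7 (-0.47, adjusted p = 0.138), the apolipoprotein gene Apoc1 (-0.72, 0.146), the sterol hydroxylase gene Cyp27a1 (-0.87, 0.152) and Lcat, which esterifies cholesterol on lipoproteins (-0.76, 0.278), were lower on every KO array. These 9 are named after their values were seen, and none of them passed.

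With the slide as a random block Ch25h, Gpat3 and Slc27a3 passed (adjusted p = 0.0213, 0.0190 and 0.0367) and Agpat3 and Mogat2 did not (0.0674 and 0.0746). With it as a fixed block Ch25h passed (2.43, adjusted p = 0.0428), and Gpat3 (1.55, 0.0562), Slc27a3 (-1.42, 0.0963), Agpat3 (0.84, 0.131) and Mogat2 (-1.48, 0.152) did not. Leaving out KO 948 ended all 5 calls, with differences close to those on all arrays (Ch25h 1.95, Gpat3 1.38, Agpat3 0.79, Slc27a3 -1.28 and Mogat2 -1.33). That of Gpat3 was also lost without WT 1, that of Slc27a3 without WT 1 or WT 2, that of Ch25h without WT 1, 2 or 3, that of Mogat2 without any array except WT 1, and that of Agpat3 without any 1 array, at adjusted p-values from 0.0536 to 0.153.

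No gene passed in the other 5 lists. Among 12 genes of acyl-CoA synthesis and binding the largest difference measured above background in both genotypes was that of the acetyl-CoA synthetase Acss2 (-1.44 ± 0.30, adjusted p = 0.0550), followed by that of Acss1, its mitochondrial relative (-0.74 ± 0.16, adjusted p = 0.0647), which is named after its values were seen. Acsl6 was well above background on all WT arrays and on no KO array, which makes it at least 1.42-fold lower in KO (adjusted p = 0.0645), and as a bound it has no rank. Acss2 read 2.63, 3.58 and 2.55 in WT, against 1.39, 1.34 and 1.71 in KO, without overlap. Among 8 genes of lipolysis and cholesteryl ester turnover they were those of the hormone-sensitive lipase Lipe (-0.65, adjusted p = 0.150) and the cholesterol-esterifying enzyme Soat1 (0.55, adjusted p = 0.316). Among 11 genes of fatty acid synthesis and desaturation they were those of Acacb (-0.96, adjusted p = 0.324) and the desaturase Scd1 (-0.51, adjusted p = 0.295). Fatty acid oxidation, with 17 genes, had the smallest median absolute difference of the 8 lists, 0.0782, and its largest difference was that of Cpt1b (-0.44, adjusted p = 0.749). Cpt1b was well above background on only 2 KO arrays and read -5.74 in KO 947.

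Among 15 nuclear receptors and lipid regulators the largest differences were those of Nr1d1 (0.73, adjusted p = 0.477) and Nr1h3 (0.56, adjusted p = 0.328). Nr1d1 was well above background on only 2 WT arrays, and it read -5.55 in WT 3 against -3.95 and -3.68 in WT 1 and 2. Nr1h3 encodes LXR alpha and read 2.42, 1.75 and 2.49 in WT 1, 2 and 3, against 2.32, 3.00 and 3.02 in KO 947, 948 and 949. The KO arrays of the second slide lay above WT and KO 947 lay within it. Further genes were chosen for their known roles after their values were seen. Pparg, which encodes PPAR gamma, read 2.72, 2.85 and 2.31 in WT, against 3.21, 2.80 and 2.998 in KO, with overlap (0.38 ± 0.20, adjusted p = 0.345). The fatty acid receptor Cd36 overlapped too (0.16 ± 0.27, adjusted p = 0.786). Fabp3, another fatty acid carrier, read 1.97, 1.97 and 1.93 in WT, against 2.68, 2.76 and 3.29 in KO, without overlap, and narrowly missed the threshold (0.95 ± 0.20, adjusted p = 0.0537).

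The genes whose pattern over the 6 arrays was most like that of the 2 members with the largest differences were found among 13611 genes well above background on every array. For Dgat2 they were Fancc, Prkg1, Tox, Wscd1 and E2f2, with Pearson's r from 0.985 to 1.00. For Acsl1 they were Cyb561a3, Mefv, Nod2, Stfa3 and Ank2, with r from 0.986 to 0.994. None of these 10 genes passed the threshold. The 6 arrays share the genotypes and slides, and these values are a description.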

How the data were processed

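Total RNA of 6 mice was amplified, labelled with a cyanine dye and hybridized to 1 array per mouse, per the labels' protocols. Spot intensity was extracted by the authors with Agilent's Feature Extraction, for which the file headers give version 10.7.3.1 and the submitters' processing notes 9.1. Per the file headers, the deposited processed signal had background subtracted and was detrended array by array. Flags (other values, 0 or 1) mark outlier, saturated and well-above-background spots, and no spot was saturated. A deposited table of log2 values for 3215 probes, centred on each probe's median, served as an alternative; its genotypes do not overlap in any probe, and its scaling between arrays is not given in the sources.

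From these, log2 processed signal minus the log2 75th percentile of the array was computed over 59305 non-control spots, outlier spots were left out and spots of a probe averaged. Probes were named by transcript accession through RefSeq (GRCm38.p6; 26413 of 55681 matched). Probes above background on at least 3 arrays were kept, and the probe with the highest mean stood for its gene. Genotypes were compared with limma 3.58.1 (R 4.3.3, lmFit and eBayes, two-sided, Benjamini-Hochberg) across 15736 genes, 35 with 1 missing value. The fit was tested on simulated data. A gene with no array of a group above background is given as a bound, against the lowest signal well above background on each array. The number of arrays limits the precision.

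The members and lists were chosen with earlier results of these data known. Named genes are the 10 members, Bach1, Hmox1, up to 4 genes past the threshold per list (or the 2 largest differences), up to 3 fallen markers per list, markers not above background, and the 5 genes most like each of the 2 members with the largest differences. Other listed genes and other markers were named after their values were seen. The result of 1 gene that this rule names is not reported here.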

Additional observations from a re-analysis of the deposited data

How the results depend on the processing

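Of 23 alternatives, 22 left the count of the 10 genes past the threshold at 0, and with the authors' table, which holds 1 of them (Lpl), it was 1. That table holds only probes that separate the genotypes, 1788 genes in all and 17 of the listed ones, so its counts are no independent evidence. The difference of an individual gene changed sign only where it was small. Fabp4 was at -0.21 on arrays labelled male, Fabp5 at 0.0026 with quantile normalization, 0.12 with scaling to the median and 0.052 with normexp, Plin2 at -0.0041 with array weights, Abca1 at 0.20 with scaling to the median, 0.022 on arrays labelled male and 0.0050 with array weights, Abcg1 at -0.050 on arrays labelled male, and Apoe at 0.025 with quantile normalization, 0.17 with scaling to the median and 0.013 with normexp. Leaving out 1 array gave Fabp4 -0.076 to 0.37, Fabp5 -0.23 to 0.017, Plin2 -0.016 to 0.17, Abca1 -0.14 to 0.10, Apoe -0.20 to 0.20, Dgat2 -0.72 to -0.31, Pltp -0.69 to -0.21. Lpl stayed higher in KO and Acsl1, Dgat2 and Pltp lower under all alternatives run that gave them a value, and the authors' table gave none for the last 3.

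The count of genes past the threshold was 537, and it was 77 (without WT 1) to 900 (without KO 947) with 1 array left out, moving over 1.5 times for each array, 343 with quantile normalization, 226 without a filter on dim probes, 84 with the slide as a fixed block, 255 with it as a random block, 24 within the slide that holds both genotypes, 305 with sex as a covariate, 182 on arrays labelled male, 810 with a trended and robust eBayes, 1747 with array weights, 1681 of 1788 in the authors' table, 1151 at a threshold of 0.1. Of the listed pathway genes 5 passed, and it was 0 (without KO 948) to 7 (without KO 947) with 1 array left out, 3 with quantile normalization, 3 without a filter on dim probes, 1 with the slide as a fixed block, 3 with it as a random block, 0 within the slide that holds both genotypes, 3 with sex as a covariate, 3 on arrays labelled male, 8 with a trended and robust eBayes, 15 with array weights, 14 of 17 in the authors' table, 9 at a threshold of 0.1. Array weights gave the most calls, and the cause was not tested. Normexp used median spot signals, as held by the files, in place of the planned means. No paired analysis was possible because the genotypes share no replicate numbers. The number of mice limits every count, and probes that are dim on KO arrays limit falls to bounds.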
